A study of Mus musculus with 82 samples.

Results

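The insulin-like growth factor (IGF) axis was followed in mouse aortic vascular smooth muscle cells (aVSMC) through 10 genes. They are the ligands Igf1 and Igf2, the receptors Igf1r and Igf2r, and the binding proteins Igfbp2 to Igfbp7. The members were chosen by name from the gene column of the count tables, with earlier results of these data known, so 10 of 55401 genes are described. All 10 passed the filter on low counts at both time points. After 24 h incubation with U46619, 4 of the 6 binding protein genes fell and Igfbp2 rose, while the receptor genes and Igfbp7 were not called. Of all genes, 19.4% were called lower and 18% higher in that comparison. After 48 h, a fit of both batches without a batch term called Igfbp4 lower with U46619 combined with EGF, and no other member. Of all genes, 4.17% were called lower and 5.32% higher there. In the EGF/U46619 batch alone with the culture set as block, a fit added after seeing the data, Igf1, Igfbp3, Igfbp4 and Igfbp6 were called lower after 48 h in both incubations that contained U46619. By that fit 13.9% of all genes were called lower with U46619 and 17% with EGF+U46619.

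IGF-1 and IGF-2 are secreted peptides that act through the tyrosine kinase encoded by Igf1r, which signals through insulin receptor substrates to PI3K and AKT. In smooth muscle cells this route is known for promoting growth, survival and migration. Igf2r encodes the mannose 6-phosphate receptor, which takes up and degrades IGF-2. The binding proteins hold IGFs outside the cell and can restrain or prolong their action, and proteases that cut them release the ligand.

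The cells were primary, passaged cultures from aortas of C57BL/6 mice. Before the stimuli they were all kept for 24 h in medium without serum or supplements, having been grown with fetal calf serum, insulin, EGF, transferrin, hydrocortisone and selenite. EGF (10 µg/L) activates the EGF receptor, AngII (10 nM) the angiotensin II type 1 receptor and U46619 (1 µM), a thromboxane A2 analog, the thromboxane receptor. Cells of 6 mice were incubated for 24 h without a substance (control), with U46619, AngII or EGF alone, with EGF+U46619, with EGF+AngII or with all 3 (n = 6 cultures per group). The 48 h cultures came in a pair of batches of n = 5 per group. In addition to control and EGF, which both contain, the EGF/U46619 batch includes U46619 and EGF+U46619 and the EGF/AngII batch includes AngII and EGF+AngII. Cultures of a batch with the same replicate number form a culture set, and the labels name 5 mice for the 10 sets of 48 h. The 24 h and 48 h libraries were scaled apart, so levels are compared within a time point only.

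Libraries held 16483529 to 20818809 counts in total at 24 h, and 19936925 to 33916114 at 48 h. Of the smooth muscle markers, Acta2, the contractile actin, had 1149 to 4949 FPM (counts scaled to a common library size) in the 24 h controls. Myh11, the smooth muscle myosin heavy chain, had 2.68 to 90.9 FPM there. Tagln and Cnn1 lie on chromosome 9, whose genes are listed at 0 in every library like those of chromosomes X, Y and MT, 7075 genes in all, so they check nothing. Fibroblast markers were present in every culture as well, and endothelial markers, summed over 6 genes, varied from 4.85 to 1760 FPM in the same controls. In RNA from whole cultures, fewer cells of a type and less RNA per cell cannot be told apart.

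Of the 5 binding protein genes that were called after 24 h, Igfbp2 and Igfbp5 are neighbours on chromosome 1, at 72824503 to 72852474 on the plus strand and 72857932 to 72874884 on the minus strand of GRCm38, with 5457 bases between their 3′ ends. Igfbp3 (7206086 to 7213923, minus strand) and Igfbp4 (99041244 to 99054392, plus strand) lie far apart on chromosome 11, and Igfbp6 (102144362 to 102149511, plus strand) on chromosome 15. Of the other members, Igf1 lies on chromosome 10 (87858265 to 87937042, plus strand), Igf2 (142650766 to 142666816, minus strand) and Igf1r (67952827 to 68233668, plus strand) on chromosome 7, Igf2r on chromosome 17 (12682406 to 12769664, minus strand) and Igfbp7 on chromosome 5 (77349240 to 77408041, minus strand). The 250 bases before the RefSeq start of each gene (GRCm38.p6) are shown because these genes moved in the same comparison, in opposite directions for the neighbours Igfbp2 and Igfbp5. RefSeq promoters were matched for 10 of 10 members. They are read 5′ to 3′ on the strand of the gene, and capitals mark the motifs searched.
Igfbp2, chr1:72824230-72824479, plus strand: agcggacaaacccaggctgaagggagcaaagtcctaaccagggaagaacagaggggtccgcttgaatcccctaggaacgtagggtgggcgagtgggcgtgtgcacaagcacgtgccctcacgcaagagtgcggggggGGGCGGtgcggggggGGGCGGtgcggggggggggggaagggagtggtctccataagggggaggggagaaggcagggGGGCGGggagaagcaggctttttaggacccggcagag
Igfbp3, chr11:7213924-7214173, minus strand: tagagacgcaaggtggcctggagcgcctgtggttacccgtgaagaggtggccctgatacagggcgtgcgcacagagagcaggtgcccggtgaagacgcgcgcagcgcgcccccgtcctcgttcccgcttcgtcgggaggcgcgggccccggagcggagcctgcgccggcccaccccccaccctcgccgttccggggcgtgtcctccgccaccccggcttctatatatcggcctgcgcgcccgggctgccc
Igfbp4, chr11:99040994-99041243, plus strand: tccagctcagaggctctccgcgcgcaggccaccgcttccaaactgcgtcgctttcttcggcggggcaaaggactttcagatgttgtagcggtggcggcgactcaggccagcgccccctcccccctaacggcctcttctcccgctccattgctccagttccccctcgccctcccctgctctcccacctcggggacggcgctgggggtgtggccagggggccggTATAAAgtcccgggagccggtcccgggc
Igfbp5, chr1:72874866-72875115, minus strand: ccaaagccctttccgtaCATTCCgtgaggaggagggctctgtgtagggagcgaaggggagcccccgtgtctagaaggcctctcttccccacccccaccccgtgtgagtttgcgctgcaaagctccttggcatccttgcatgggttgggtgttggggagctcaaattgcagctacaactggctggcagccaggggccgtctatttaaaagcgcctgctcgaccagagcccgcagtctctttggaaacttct
Igfbp6, chr15:102143936-102144185, plus strand: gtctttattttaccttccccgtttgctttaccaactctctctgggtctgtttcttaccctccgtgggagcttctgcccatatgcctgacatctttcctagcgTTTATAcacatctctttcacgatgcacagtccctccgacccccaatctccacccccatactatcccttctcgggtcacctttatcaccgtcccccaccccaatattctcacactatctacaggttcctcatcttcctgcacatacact
The motifs, searched on both strands, were the GC box GGGCGG, the TATA box TATAAA, the TEAD motif GGAATG, the AP-1 motif TGANTCA and the CArG box of serum response factor. The Igfbp2 window, the one of the gene that rose, held 3 GC boxes at 113, 98 and 37 bases before the start, a motif found in 32.7% of 32851 promoters of this length. The Igfbp4 window held TATAAA 28 bases before the start, and Igfbp6 held the same letters on the other strand farther upstream, against 12.4% of promoters. Igfbp5 held a TEAD motif on the other strand at 233 bases, against 12.6%, and Igfbp3 held none of the motifs. The AP-1 motif (6.75% of promoters) and the CArG box (1.47%) were in none of these 5 windows. GC content was 49.6% for Igfbp6 and 58.8% to 73.2% for the other 4, with a median of 52.4% over all promoters. A match is a description of these letters, not a bound site.

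In the 24 h controls, 5 of the 6 binding proteins were the most abundant members. On the scale of FPM per kb of exon, Igfbp7, a low-affinity IGF binder of the extracellular matrix, had a level of 1410 ± 656 (SD, n = 6). It was followed by Igfbp6, which binds IGF-2 in preference to IGF-1, with 484 ± 396, Igfbp3 with 156.1 ± 133, Igfbp4 with 70.0 ± 33.7 and Igfbp2 with 63.9 ± 58.2. Igf2r had 15.3 ± 3.56 and Igf1r 7.01 ± 2.57, Igf1 had 3.12 ± 3.68, Igfbp5 1.67 ± 0.842 and Igf2 0.0344 ± 0.0471. No pair of neighbours in this order passed after adjustment over the 9 pairs. The log2 level of Igfbp2 exceeded that of Igf2r by 1.57 ± 1.09 (SD), Igf2r that of Igf1r by 1.20 ± 0.86 and Igfbp5 that of Igf2 by 3.72 ± 1.32, each in 6 of 6 cultures (sign flips, exact permutation p = 0.03125, which 6 cultures cannot go below, adjusted p = 0.09375). Over the 10 control cultures of 48 h, Igfbp2 stood before Igfbp3 and Igfbp4, with 262 ± 257 FPM per kb against 76.5 ± 53.7 and 49.4 ± 25.5, and the order was otherwise the same.

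Igf2 was near the limit of detection and its count is uncertain. In the GENCODE annotation, 64.5% of its exon bases are shared, 62.8% with Gm49394 on the same strand and 1.71% with the antisense gene Igf2os. By default featureCounts assigns no read that overlaps more than 1 gene, an option to count such reads is not among those stated, and nor is the strand setting, so the values of Igf2 may be too low. Of Igfbp7, 7.03% of exon bases are shared with Polr2b on the other strand, and the other 8 members share none. Igf2 was at 0 in 24 of 42 libraries after 24 h and in 22 of 40 after 48 h. Among the 24 h controls it did not exceed 0.578 FPM. After 48 h, it was detected above 1 FPM in a single culture set of each batch. Replicate 5 of the EGF/U46619 batch had 5.11 FPM in control, 2.89 with EGF, 7.50 with U46619 and 4.94 with both. Replicate 6 of the EGF/AngII batch had 19.6 FPM in control, 10.6 with EGF, 9.87 with AngII and 24.6 with EGF+AngII. The level of Igf2 differed more between culture sets than between incubations of a set, and in no group did it reach the mean of 5 FPM that a call required.

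The comparison of U46619 with control after 24 h addressed what activation of the thromboxane receptor alone does to these genes. A gene counted as called, that is as a differentially expressed gene (DEG), if both the quasi-likelihood test of edgeR and the Wald test of DESeq2 gave an FDR under 0.05 and 1 of the compared groups had a mean of 5 FPM or more. Shares of genes called are out of those that reached this mean. By this rule 5 of 10 members were called, 4 lower and 1 higher, where 19.4% of all genes were called lower and 18% higher. The median log2-fold change was −0.48 over the members and −1.35 over the 6 binding proteins, beside −0.06 over all 14653 genes tested. In the same libraries, Acta2 rose by 2.05 on the log2 scale (FDR = 0.000202) and Lmod1, another smooth muscle marker, by 0.84. The other 5 of 7 smooth muscle markers tested were not called, with a list median of 0.22, and their summed level was 1311 to 5936 FPM in control and 4467 to 15413 with U46619. Of the 6 fibroblast markers, 5 fell (Pdgfra, Dcn, Dpt, Pi16 and Ly6a), and their summed level was 237 to 2233 FPM with U46619. It was 595 to 3502 FPM in control, and no fibroblast marker was at 0 in all libraries of either group. The summed adipocyte markers (3 genes, 1 called lower) had 0 to 1023 FPM in control and 0 to 463 with U46619, immune markers (5 genes, 1 called higher and 1 lower) 20.9 to 114 and 23.3 to 76.6 FPM, and of the endothelial markers, with 1 gene of 6 at 0 in all control and U46619 cultures, 0 of 5 tested were called. The part of these cell types in the binding protein values was not tested.

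Igfbp4, which binds both ligands and is cut by the protease PAPP-A, had the largest decrease. Its level was 71.4 to 497 FPM in control cultures (median 327) and 12.8 to 198 with U46619 (median 63.5). It was lower in 6 of 6 mice, from 71.4 to 48.6 FPM in mouse 4 and from 226 to 12.8 FPM in mouse 2, although the groups overlapped. The fitted log2-fold change was −1.93 ± 0.46 (SE), 3.80-fold lower (FDR = 0.00172). It stayed called when any 1 mouse was left out.

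Igfbp3, the main carrier of IGFs in blood, had 41.3 to 1250 FPM in control (median 412) and 16.2 to 464 with U46619 (median 163.995). The control of mouse 1 lay below every treated culture but its own, so the groups overlapped, but each treated culture was below its own control (6 of 6). The log2-fold change was −1.56 ± 0.37 (2.95-fold lower, FDR = 0.00151). Igfbp6 had 156.2 to 1211 FPM in control (median 306) and 37.2 to 507 with U46619 (median 221), and was lower in 6 of 6 mice. Its log2-fold change of −1.15 ± 0.34 (FDR = 0.00927) was carried by mice 1 and 2, where Igfbp6 went from 1211 to 323 and from 279 to 37.2 FPM, whereas mouse 6 had 156.2 and 149.3 FPM. Without mouse 1 or without mouse 2, Igfbp6 was no longer called (highest FDR = 0.0743).

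Igfbp5, which binds to matrix and is a known product of smooth muscle cells, was much less abundant, with 2.1 to 16.4 FPM in control (median 9.93) and 0.348 to 10.1 with U46619 (median 3.37). It was lower in 5 of 6 mice. Mouse 6 went the other way, from 7.64 to 10.1 FPM. The log2-fold change was −1.67 ± 0.50 (FDR = 0.0105), and it was no longer called without mouse 2 (FDR = 0.0738) or with only control and U46619 in the fit.

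Igfbp2, which carries an integrin-binding motif and also binds both ligands, rose. It had 31.7 to 295 FPM in control (median 72.7) and 48.9 to 1085 with U46619 (median 170.7). Mouse 1 went from 295 to 1085 FPM and mouse 2 from 41.0 to 190, while mouse 5 went from 37.7 to 48.9. The groups overlapped, but the direction was the same in 6 of 6 mice. The log2-fold change was 1.20 ± 0.29 (2.30-fold higher, FDR = 0.0018), and it stayed called without any 1 mouse. Igfbp7 had 686 to 2749 FPM in control and 840 to 2782 with U46619, a log2-fold change of 0.06 ± 0.12 (FDR = 0.721) with 3 mice higher and 3 lower.

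The size of the change differed between mice. Mouse 2 showed the largest decreases of Igfbp3, Igfbp4 and Igfbp6 and the largest increase of Igfbp2 with U46619, and mouse 6 the smallest decreases of Igfbp3 and Igfbp6. Without mouse 2, 3 members were called in place of 5. When the mouse was left out of the model altogether, none of the 5 was called (0 members).

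**Figure D1:**
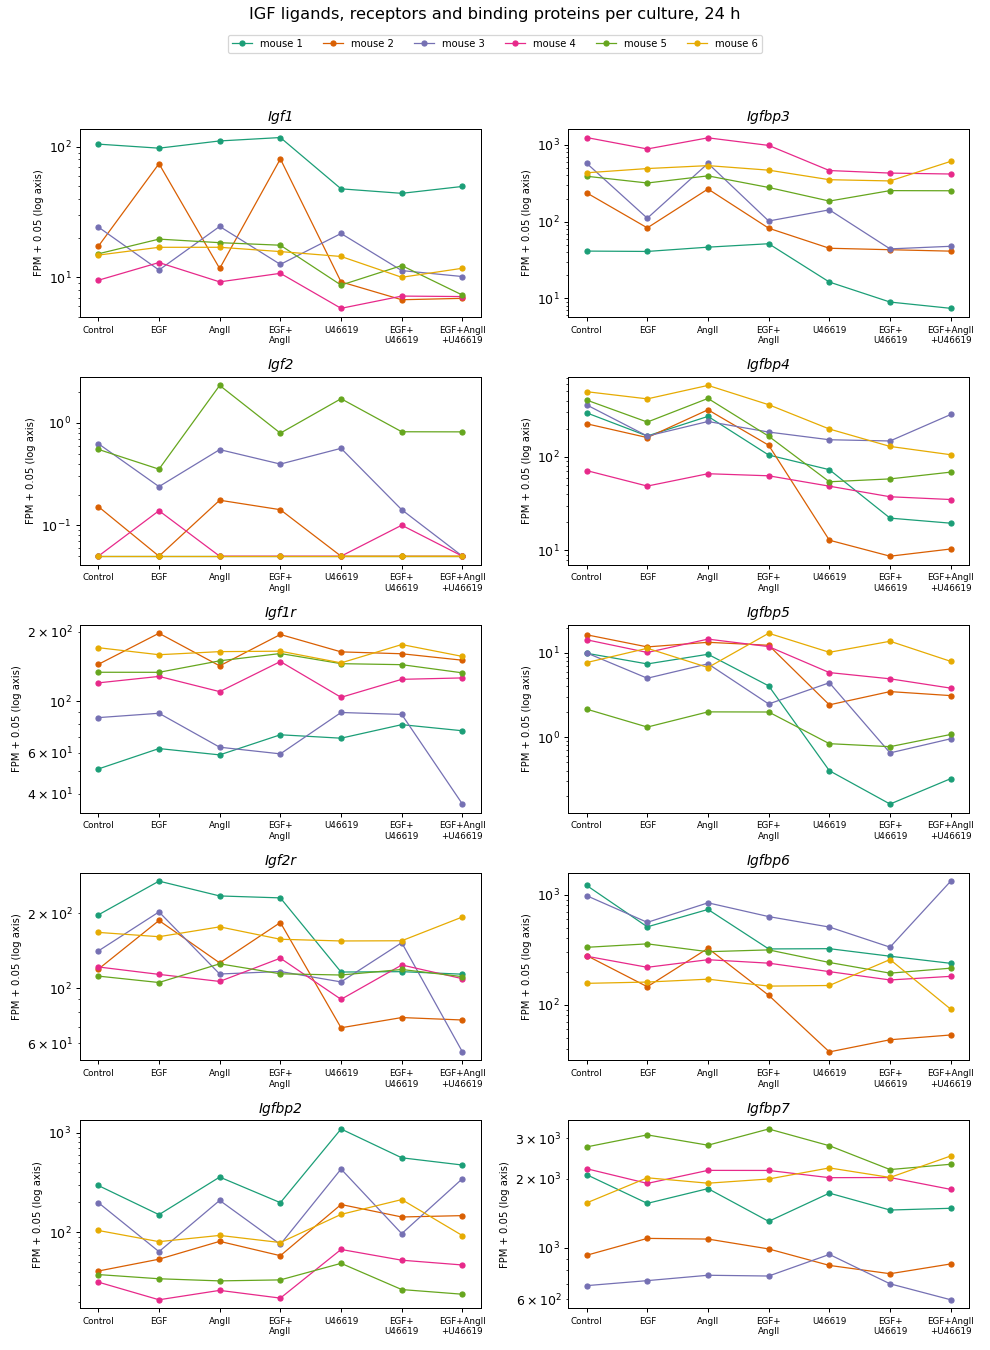
Level of the 10 genes after 24 h, 1 panel per gene, with FPM + 0.05 on a logarithmic axis and the 7 incubations side by side. Points are cultures, lines join cultures of the same mouse (n = 6). With U46619 alone, Igfbp3, Igfbp4 and Igfbp6 lie below control in 6 of 6 mice and Igfbp5 in 5 of 6, Igfbp2 lies above it in 6 of 6, and Igfbp4 goes from 226 to 12.8 FPM in mouse 2.

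Of the ligands and receptors, none was called with U46619 after 24 h. Igf1 had 9.46 to 105 FPM in control (median 16.2) and 5.75 to 47.6 with U46619 (median 11.8), lower in 6 of 6 mice with a mean log2 change of −0.61 ± 0.42 (SD). In the fit its log2-fold change was −0.56 ± 0.35 (SE, FDR = 0.218). With only control and U46619 in the fit, Igf1 (FDR = 0.0235) and Igf2r (FDR = 0.034) were called and Igfbp5 was not. Igf2r had 112 to 197 FPM in control and 69.2 to 154.6 with U46619, and its log2-fold change was −0.40 ± 0.20 (FDR = 0.119), with 5 of 6 mice lower. Igf1r had 51.0 to 170.8 FPM in control and 69.3 to 163.9 with U46619 (0.06 ± 0.14, FDR = 0.756).

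**Figure D2:**
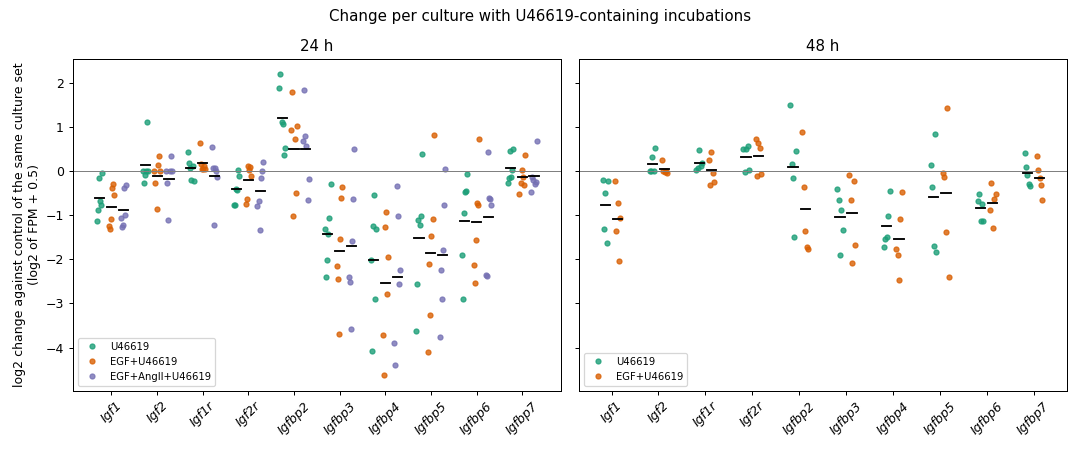
Change of each member against the control of the same culture set, as the difference in log2(FPM + 0.5), for U46619, EGF+U46619 and all 3 substances after 24 h (n = 6 mice) and for U46619 and EGF+U46619 after 48 h (n = 5 sets of the EGF/U46619 batch). Coloured points are culture sets and horizontal bars are means. All 6 mice lie below 0 for Igfbp3, Igfbp4, Igfbp6 and Igf1 and above 0 for Igfbp2 with U46619 after 24 h.

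Combined incubation with EGF and U46619 for 24 h gave 4 called members, all lower, against 22% of genes called lower and 22.6% called higher. Igfbp4 had 8.64 to 147.9 FPM (median 47.8) and a log2-fold change of −2.43 ± 0.47 (5.37-fold lower, FDR = 0.000142). It was the one member call that also held without the mouse in the model (FDR = 0.0265). Igfbp3 had 8.89 to 430 FPM and a log2-fold change of −1.86 ± 0.37 (FDR = 0.000219). Igfbp5 had 0.110 to 13.7 FPM, where the lowest library rests on 2 reads, and was 3.99-fold lower (FDR = 0.00251). Igfbp6 had 48.0 to 333 FPM and a log2-fold change of −1.13 ± 0.34 (FDR = 0.00893), which was no longer called without mouse 1 (FDR = 0.0852). The calls of Igfbp5 and Igfbp6 were also lost with only control and EGF+U46619 in the fit. Both Igfbp5 and Igfbp6 were above control in mouse 6 and below it in the other 5 mice. Igfbp2 was higher in 4 of 6 mice (0.56 ± 0.29, FDR = 0.115), with a decrease from 199 to 97.1 FPM in mouse 3. Igf1 was lower in 6 of 6 mice (−0.79 ± 0.35, FDR = 0.0716). Igf1r was higher in 6 of 6 mice by a mean of 0.17 ± 0.23 (SD) on the log2 scale, and was not called (fitted change 0.16 ± 0.14, SE, FDR = 0.351). In these libraries 6 of 6 fibroblast markers fell, with a summed level of 232 to 1275 FPM. Of the 7 smooth muscle markers, Acta2 rose by 1.62 and Mylk fell by 1.10, with a list median of 0.23. Of the 3 adipocyte markers 2 fell, with a list median of −2.82 and a summed level of 0 to 68.6 FPM. The part of these cell types in the changes was not tested.

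With all 3 substances, the same 4 genes Igfbp3, Igfbp4, Igfbp5 and Igfbp6 were called lower (21.8% of all genes were called lower in this comparison). The log2-fold changes were −1.66, −2.17, −2.22 and −0.98, with FDR between 0.000428 and 0.0203. Igf1 reached an FDR of 0.0439 in edgeR but 0.0528 in DESeq2. The comparisons with control share the 6 control libraries, so these lists are not independent of each other. Igfbp6 with all 3 substances was no longer called without mouse 1, without mouse 2 or in a fit of these cultures and control alone, and mouse 3 had 1324 FPM, above its control of 977. In these libraries 6 of 6 fibroblast markers (list median −1.26) and 2 of 3 adipocyte markers (−2.24) fell, and of the smooth muscle markers 2 of 7 rose and 1 fell (0.48). Their part was not tested.

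Direct contrasts asked what U46619 added to EGF and whether EGF changed the response to U46619. EGF+U46619 against EGF called 4 members (18.2% of all genes). Igfbp2 was higher by 1.10 ± 0.29 on the log2 scale (FDR = 0.00853), and Igf1 (−1.25 ± 0.36, FDR = 0.0158), Igfbp4 (−1.78 ± 0.46, FDR = 0.00785) and Igfbp5 (−1.48 ± 0.51, FDR = 0.0423) were lower. None of these 4 was called without mouse 1 (0 members), and 2 were called without mouse 2 or without mouse 4. The Igfbp5 call was lost on leaving out any of mice 1 to 5 and, like that of Igf1, with only the groups compared in the fit. U46619 against EGF called 2 members (15.7% of all genes). Igfbp2 was higher with U46619 by 1.74 ± 0.29 (FDR = 0.000291), and Igf2r had a log2-fold change of −0.67 ± 0.20 (FDR = 0.0218). Igf2r had 105 to 269 FPM with EGF and 69.2 to 154.6 with U46619. Its call was lost without mouse 1 and without mouse 2.

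EGF+U46619 against U46619 called 0 members (0% of all genes), with 1 member, Igfbp2, at an unadjusted p under 0.05 in edgeR and 0 in DESeq2 after adjustment. The log2-fold change of Igfbp2 in this contrast was −0.64 ± 0.29, so its level was lower with EGF+U46619 than with U46619 alone, without passing the test. The interaction of EGF and U46619, which asks whether the combination departs from the sum of the single log2-fold changes, also called 0 members (0% of all genes), with 0 at an unadjusted p under 0.05 in edgeR and 0 in DESeq2 after adjustment. The interaction terms of the 5 genes called with U46619 lay between −0.10 (SE 0.40, Igfbp2) and 0.64 (SE 0.47, Igfbp6).

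EGF alone called no member after 24 h (0 members, with 0.0386% of all genes called). In edgeR 1 member had an unadjusted p under 0.05, and in DESeq2 0 had an FDR under 0.05. That member was Igfbp3, with a log2-fold change of −0.86 ± 0.36 (edgeR FDR = 0.2). Igfbp4 was lower in 6 of 6 mice, with 48.7 to 417 FPM and a mean log2 change of −0.67 ± 0.30 (SD), but an FDR of 0.444 in the fit. Igf1 showed no common direction, since mouse 2 went from 17.2 to 74.1 FPM and mouse 3 from 24.3 to 11.3. AngII alone called 0 members (0% of all genes), with 0 at an unadjusted p under 0.05 in edgeR and 0 in DESeq2. The log2-fold changes with AngII lay between −0.18 (Igfbp5) and 0.09 (Igfbp3) for the 9 members other than Igf2. EGF+AngII called 0 members where 4.39% of all genes were called. In edgeR 3 members had an unadjusted p under 0.05, namely Igfbp3 (−0.80 ± 0.36), Igfbp4 (−0.90 ± 0.44) and Igfbp6 (−0.77 ± 0.34, FDR = 0.147), and in DESeq2 0 members had an FDR under 0.05. EGF+AngII against EGF called 0 members (0% of all genes), with 0 at an unadjusted p under 0.05 in edgeR and 0 in DESeq2.

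Before the 48 h values, 1 library has to be set apart. Deviations from the group mean correlated within culture sets with a median of 0.809, but the library labelled control replicate 4 of the EGF/AngII batch correlated with the treated libraries of its own set by −0.284 to −0.277 and with those of replicate 2 by 0.849 to 0.878. Its Igfbp4 level was 136 FPM, where EGF, AngII and EGF+AngII of the same set had 2131, 2253 and 2237 FPM. Its Igfbp6 level was 151.8 FPM, against 2864, 2758 and 2454 FPM. For Igfbp4, the other 4 sets of that batch showed no such gap, with 81.1 to 704 FPM in all of their cultures. Igfbp6 was above control in 2 of these 4 sets and below it in 2, with each of the incubations. Its lowest log2 changes from control were −1.54 with EGF, −1.33 with AngII and −1.45 with EGF+AngII. In control replicate 2 of that batch, Igf1 had 17.9 FPM, against 5.09, 5.96 and 5.84 FPM in its treated cultures, while control replicate 4 had 5.77 FPM, against 19.4, 18.5 and 27.3 FPM. Control replicate 2 in turn correlated with its own set by 0.525 to 0.547. It correlated with the treated libraries of replicate 1 by 0.395 to 0.584, and with those of replicate 4 by −0.0104 to 0.0231. The controls of replicates 1, 5 and 6 correlated with their own sets by 0.764 to 0.940. Fits without replicate 4 still include control replicate 2. Labels were kept as given.

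Incubation with U46619 for 48 h, with all 40 libraries and the labelled mouse in the model, called 0 members (5.59% of all genes were called). This model had no term for batch or culture set, and some labelled mice have cultures in both batches. U46619, present in 1 batch, was therefore also set against controls of the other batch. In edgeR 2 members had an unadjusted p under 0.05, and in DESeq2 2 had an FDR under 0.05. These were Igfbp4 (−1.32 ± 0.47, edgeR FDR = 0.0915) and Igfbp5 (−1.53 ± 0.54, edgeR FDR = 0.0888). Without replicate 4 of the EGF/AngII batch, Igfbp4 was called (log2-fold change −1.22, FDR = 0.00181), while Igfbp5 had −1.41 (FDR = 0.108) and Igf1 −1.28 (FDR = 0.0544). EGF+U46619 called 1 member, Igfbp4, where 4.17% of genes were called lower and 5.32% higher. Its log2-fold change was −1.62 ± 0.47 (3.06-fold lower, FDR = 0.0294). Without replicate 4 of the EGF/AngII batch it was −1.49 (FDR = 0.000203), and Igf1 was called as well (−1.65, FDR = 0.00904). The Igfbp4 call was lost without replicates 1, 2 or 3 of the EGF/U46619 batch and without replicate 2 of the EGF/AngII batch (highest FDR = 0.133).

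In replicates 1 to 5 of the EGF/U46619 batch, Igfbp4 had 129, 378, 251, 139 and 254 FPM in control. It had 38.7, 129, 88.6, 68.3 and 185.7 FPM with U46619, and 37.6, 101.5, 44.8, 65.2 and 184.3 FPM with EGF+U46619. Every treated culture was below its own control in both incubations (5 of 5), but treated cultures of replicate 5 lay above the controls of replicates 1 and 4, so the groups overlapped.

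Igfbp6 in the same order had 512, 486, 478, 653 and 405 FPM in control, and 321, 339, 217, 389 and 183.9 FPM with U46619. These 2 groups did not overlap. With EGF+U46619 it had 278, 401, 196, 423 and 281 FPM, with the control of replicate 5 inside the range. Igfbp3 had 142, 363, 262, 25.5 and 593 FPM in control and 107, 230, 70.3, 13.7 and 234 with U46619, lower in 5 of 5 sets but with wide overlap. Igf1 had 4.28, 16.9, 30.5, 15.6 and 115 FPM in control, 3.65, 6.49, 21.5, 4.74 and 98.5 with U46619, and 3.57, 6.26, 18.2, 3.40 and 54.9 with EGF+U46619. Its level varied more between sets than with the incubation, and it was lower in 5 of 5 sets in both incubations.

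Igfbp2 had no common direction after 48 h. It had 108, 71.5, 362, 1407 and 145 FPM in control and 307, 79.9, 325, 499 and 197 with U46619, higher in 3 of 5 sets. With EGF+U46619 it had 201, 55.6, 140, 428 and 42.3 FPM, lower in 4 of 5 sets, with a log2-fold change of −1.49 ± 0.51 over all libraries (FDR = 0.0652 in edgeR, 0.0155 in DESeq2), or −1.16 without replicate 4 of the EGF/AngII batch (edgeR FDR = 0.124). Igfbp5 had 9.06, 10.9, 42.4, 3.32 and 3.82 FPM in control and 10.0, 8.33, 12.8, 6.37 and 0.708 with U46619, lower in 3 of 5 sets. Within the EGF/U46619 batch alone the log2-fold change of Igfbp5 was −0.80 ± 0.48 (FDR = 0.299), against −1.53 with the controls of both batches.

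Neither receptor nor Igfbp7 was called after 48 h. In the EGF/U46619 batch Igf2r had 94.9 to 150.8 FPM in control and 134.9 to 195 with U46619, higher in 4 of 5 sets, with a log2-fold change of 0.22 ± 0.16 over all libraries (FDR = 0.44). Igf1r had 89.0 to 159.02 FPM in control and 92.8 to 179.7 with U46619, higher in 5 of 5 sets by a mean of 0.17 ± 0.19 (SD) on the log2 scale, and its fitted log2-fold change was −0.01 ± 0.20 (SE, FDR = 0.986). Igfbp7 had 899 to 2527 FPM in control and 716 to 3224 with U46619 (0.15 ± 0.34, FDR = 0.821). The ranges of control and U46619 overlapped for these 3 genes. Without replicate 4 of the EGF/AngII batch the log2-fold changes of Igf2r, Igf1r and Igfbp7 were 0.21, −0.00248 and 0.17, none of them called.

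**Figure D3:**
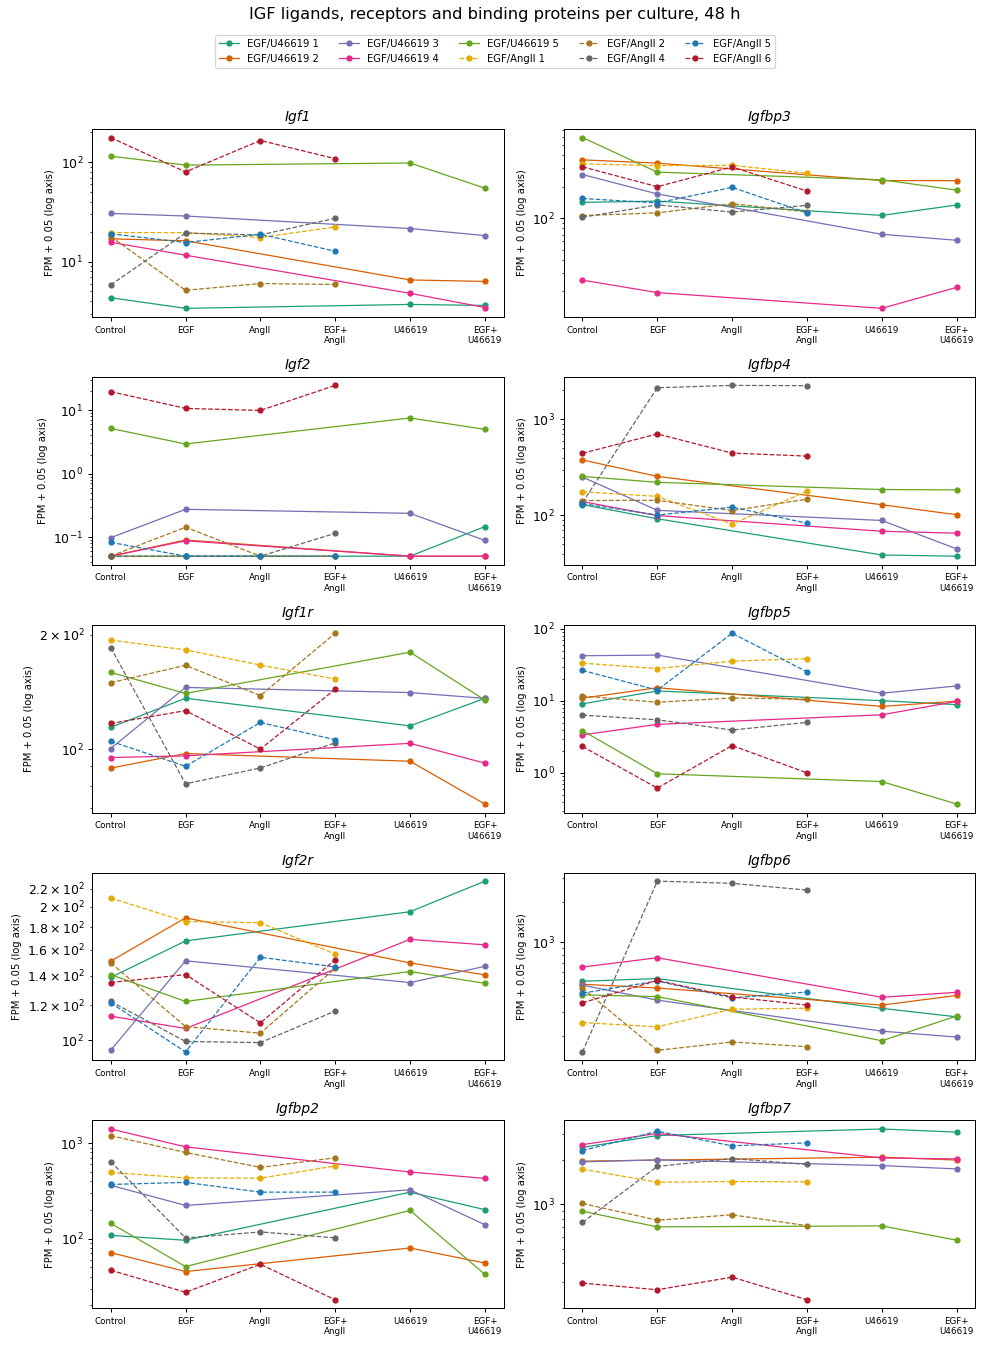
Level of the 10 genes after 48 h, 1 panel per gene, with FPM + 0.05 on a logarithmic axis. Points are cultures, lines join cultures of the same culture set, solid for the EGF/U46619 batch and dashed for the EGF/AngII batch (n = 5 per group and batch). Igfbp4 and Igfbp6 are lower with U46619 than in control in every set of the EGF/U46619 batch, and replicate 4 of the EGF/AngII batch goes from 136 FPM in control to 2131 FPM with EGF for Igfbp4.

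The labels name 5 mice for the 10 culture sets of 48 h, although the methods of the study state a different mouse for each replicate. By the labels, replicates 1 and 4 of the EGF/U46619 batch share a mouse, as do replicates 1, 2 and 5 of the EGF/AngII batch. Cultures of the same labelled mouse in different sets correlated with a median of 0.0749 (−0.470 to 0.584). These were deviations from group means, so the value cannot show that such sets are independent. After the data had been seen, a fit of the EGF/U46619 batch alone, blocked by culture set instead of mouse, was added. It treats replicates 1 and 4 as separate blocks. It called 4 members lower with U46619 (13.9% of genes were called lower by this fit) and 4 lower with EGF+U46619 (17%). With U46619 these were Igf1 (−0.78 ± 0.22, FDR = 0.0156), Igfbp3 (−1.08 ± 0.22, FDR = 0.00216), Igfbp4 (−1.27 ± 0.20, FDR = 0.000268) and Igfbp6 (−0.84 ± 0.12, FDR = 0.000153). With EGF+U46619 the same 4 genes had log2-fold changes of −1.16, −0.95, −1.53 and −0.71, with the highest FDR at 0.00417. In the EGF/U46619 batch with the labelled mouse as block, Igfbp4 and Igfbp6 were called with U46619 (2 members).

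The remaining 48 h comparisons called few members. EGF+U46619 against EGF called Igfbp4 (−1.70 ± 0.48, FDR = 0.0329), 1 member, with 6.68% of all genes called. Without replicate 4 of the EGF/AngII batch it had −1.20 (FDR = 0.00275). That call was lost without replicates 1, 2 or 3 of the EGF/U46619 batch and without replicates 2 or 6 of the EGF/AngII batch. U46619 against EGF called 0 members (4.46% of all genes), with 2 at an unadjusted p under 0.05 in edgeR and 1, Igfbp4, in DESeq2 after adjustment. Without that replicate Igfbp4 was called there (−0.93, FDR = 0.0221). EGF+U46619 against U46619 called 0 members (0% of all genes), with 0 at an unadjusted p under 0.05 in edgeR and 0 in DESeq2. The interaction of EGF and U46619 called 0 members (0% of all genes), again with 0 in both.

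EGF after 48 h, with n = 10 cultures over both batches, called 0 members (0% of all genes), with 1 member at an unadjusted p under 0.05 in edgeR and 0 in DESeq2. That member was Igfbp2, at −0.93 ± 0.38 on the log2 scale (edgeR FDR = 1), and at −0.62 without replicate 4 of the EGF/AngII batch. Igfbp2 was below its control in 9 of 10 sets, all 5 of the EGF/U46619 batch among them, where with EGF it had 96.3, 45.2, 223, 914 and 51.1 FPM. Igfbp4 was lower with EGF in 5 of 5 sets of the EGF/U46619 batch (mean −0.58 ± 0.35, SD), against a mean of 0.82 ± 1.80 in the EGF/AngII batch, or 0.03 ± 0.46 without its replicate 4. The change of Igfbp4 with EGF differed between batches at p = 0.0159 (exact permutation test, adjusted over the 10 members p = 0.159), a test that includes replicate 4 of the EGF/AngII batch. With 5 sets in each batch, the smallest p possible is too large for 1 member alone to pass that adjustment.

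AngII after 48 h called 0 members (0% of all genes), with 1 at an unadjusted p under 0.05 in edgeR (Igf2) and 0 in DESeq2. Igfbp4 with AngII had a log2-fold change of 0.30 with all sets and −0.44 without replicate 4 of the EGF/AngII batch, and Igfbp6 went from 0.30 to −0.57, so both positive values rest on that set. Among the other 4 sets, Igfbp6 was higher in 2 and lower in 2 (mean −0.24 ± 0.75, SD). Igfbp4 was higher in 1 and lower in 3 of them. EGF+AngII called 0 members (0% of all genes), with 0 at an unadjusted p under 0.05 in edgeR and 0 in DESeq2, and EGF+AngII against EGF likewise called 0 members (0% of all genes), with 0 in both. Without that replicate none of these comparisons with control called a member either.

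The change within a culture set was compared between 24 h and 48 h for 10 members and 5 incubations. None of the 50 differences passed after adjustment (exact permutation tests, Benjamini-Hochberg). With 6 against 5 cultures, as in all incubations but EGF, the smallest p possible is too large for 1 difference alone to pass. Those of EGF, AngII and EGF+AngII include replicate 4 of the EGF/AngII batch. The smallest exact permutation p was that of Igf2r with U46619, which changed by −0.41 ± 0.32 (SD, n = 6) on the log2 scale after 24 h and by 0.32 ± 0.29 (n = 5) after 48 h (p = 0.00649, adjusted p = 0.325). Igfbp2 with U46619 had 1.20 ± 0.72 after 24 h and 0.09 ± 1.08 after 48 h (exact permutation p = 0.0758, adjusted p = 0.703). Igfbp4 with U46619 had −2.02 ± 1.29 and −1.25 ± 0.52. A call at 1 time point and not at the other therefore does not show that the changes differed with time. Nor do these tests show that the changes were alike.

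**Figure D4:**
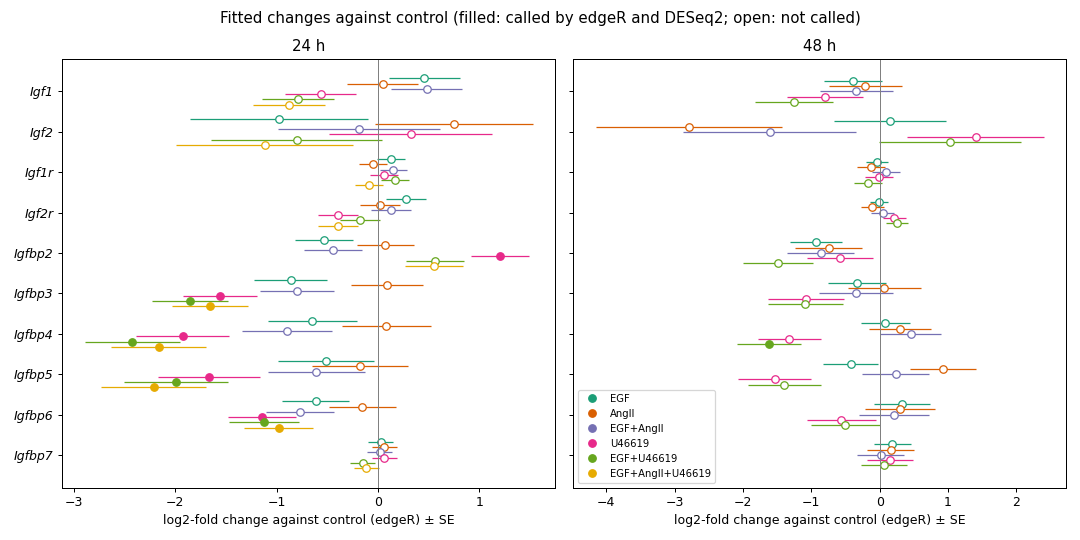
Fitted log2-fold change of each member for every comparison with control after 24 h and 48 h, with bars of 1 SE. Filled points are called genes. After 24 h, the called points are Igfbp3, Igfbp4, Igfbp5 and Igfbp6 below 0 in the 3 incubations with U46619 and Igfbp2 above 0 with U46619 alone, and after 48 h Igfbp4 with EGF+U46619.

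The rest of the pathway was read from a list of 37 further genes, of which 33 were tested after 24 h. With U46619, 8 fell and 1 rose, beside 19.4% and 18% of all genes, and the other 24 were not called, with a median log2-fold change of −0.25 over the list. Adam9, a metalloprotease that can cut Igfbp5, had 64.9 to 337 FPM in control and 210 to 941 with U46619 and rose by 1.10 ± 0.26 on the log2 scale (FDR = 0.00184). Htra1, a serine protease of binding proteins, fell by 0.54 (FDR = 0.0331), and Kazald1, a secreted protein with an IGF-binding domain, had 32.4 to 137 FPM in control and 3.63 to 98.5 with U46619, the largest decrease among the called genes of the list (−2.01 ± 0.41, FDR = 0.000353). Igfals, the acid-labile subunit that joins Igfbp3 in blood, had a log2-fold change of −4.15 but stayed under 5 FPM, a gene named after its values were seen. Of the signalling genes behind Igf1r, Irs1, the first substrate of the receptor, fell by 1.00 (FDR = 0.0241), the regulatory PI3K subunits Pik3r1 and Pik3r2 by 0.81 and 0.78, the transcription factors Foxo1 and Foxo3 by 0.68 and 0.56, and Socs1, a suppressor of cytokine signalling, by 0.84 (FDR between 0.00019 and 0.0376 for these 5). With EGF+U46619, 9 genes of the list fell and 2 rose, beside 22% and 22.6% of all genes.

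After 48 h, 34 genes of the list were tested. U46619 called 0 of them in either direction, beside 5.59% of all genes, and EGF+U46619 called 1 higher and 1 lower, beside 5.32% and 4.17%. These were Igf2bp2, an RNA-binding protein of Igf2 mRNA, at 0.51 ± 0.11 (FDR = 0.00377) and H19, the imprinted noncoding RNA beside Igf2, at −1.98 ± 0.62 (FDR = 0.0418), both named after their values were seen. Of the 6 fibroblast markers, Pi16 was the one called with U46619 after 48 h, lower by 1.58 (FDR = 0.0176), and the list median was −1.002. The adipocyte, endothelial and immune lists had medians of −3.12, −1.67 and −1.54, with 0 of their genes called. The smooth muscle list had a median of −0.35, with 0 of 7 called. Its summed level was 606 to 8238 FPM over the controls of both batches and 1208 to 5683 with U46619. With EGF+U46619 the medians were −0.50 for smooth muscle and −1.01 for fibroblast markers, with 1 gene called lower in each. The adipocyte, endothelial and immune medians were −3.92, −1.62 and −1.87 there, with 0 called. All these 48 h medians come from the fit of both batches without a batch term, whereas both incubations with U46619 were in 1 batch. The summed fibroblast level was 605 to 3384 FPM over the controls of both batches and 466 to 2293 FPM with U46619, which is from 1 batch. The part of these cell types was not tested.

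Across the 42 libraries of 24 h, after centring on each mouse, Igfbp4 and Igfbp6 had a Pearson correlation of 0.823 and Igfbp3 and Igfbp5 one of 0.846, whereas Igf2r and Igfbp2 had −0.731. These libraries share incubations, mice and depth, so the values are a description. Among 14652 other genes, those most like Igfbp4 included Cebpa (0.958), Sult1a1 (0.939), Pxmp4 (0.934) and Thra (0.932). Cebpa encodes a transcription factor of adipocyte and myeloid differentiation and Thra a thyroid hormone receptor. The log2-fold changes of these 4 genes with U46619 after 24 h lay between −3.43 (Sult1a1) and −1.18 (Pxmp4).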

How the data were processed

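RNA from mouse aVSMC cultures was sequenced in 82 libraries. The authors aligned the reads with HISAT2 2.1.0 to mm10, counted them per gene with featureCounts, multi-mapping reads included, and deposited raw counts for the 24 h and 48 h libraries. Here the counts were analysed as deposited, apart for each time point, with edgeR 4.0.16 (TMM scaling, filterByExpr, quasi-likelihood test) and DESeq2 1.42.0 (Wald test) in R 4.3.3, with incubation and labelled mouse in the model and Benjamini-Hochberg adjustment over all tested genes. A gene was called at FDR under 0.05 in both tools, at least 5 FPM in 1 group compared and after passing the filter at both times. Changes within a culture set are differences of log2(FPM + 0.5). Same-numbered cultures deviated together in 126 of 126 pairs after 24 h (lowest correlation 0.395) and 57 of 60 pairs after 48 h, the other 3 with control replicate 4 of the EGF/AngII batch. P-values measure the spread between these cultures, and counting error comes on top for low counts, where 3 counts correspond to at most 0.182 FPM after 24 h.

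The members and the gene lists were chosen with earlier results of these data known. Named were all 10 members, pathway genes called with U46619, Acta2, Tagln, Myh11 and Cnn1, and the 5 genes most like Igfbp4. One of the latter is not reported here. Genes of chromosomes 9, X, Y and MT are listed at 0 and were not analysed here. Alternatives changed the tool, the scaling, the filter, the FPM minimum, the block, the samples and the pseudocount. On simulated counts with 200 changed genes of 14653, the 24 h procedure for U46619 against control recovered 140 with 0 of wrong sign.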

Additional observations from a re-analysis of the deposited data

Results flagged for a closer look

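In 140 groups of 5 to 10 cultures, the highest and lowest value of each member was set against the others of its group, and in 21 groups 1 culture lay apart by Dixon's criterion, which chance alone passes in about 1 in 20 groups. Changes are log2 differences from the control of the same set.

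Of the 21, 8 came from replicate 4 of the EGF/AngII batch after 48 h. Igfbp4 stood at 3.97 with EGF, 4.05 with AngII and 4.04 with EGF+AngII, Igfbp6 at 4.23 with EGF, Igfbp7 at 1.25 with EGF and 1.43 with AngII, Igf1 at 1.66 with EGF and Igf1r at −1.18 with EGF. All of them use the control whose profile resembled replicate 2.

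After 24 h, Igf1 stood at 2.19 with EGF+AngII in mouse 2, Igf1r at 0.63 with EGF+U46619 in mouse 1 and Igfbp5 at 0.54 with EGF in mouse 6. Igfbp7 stood at −0.67 with EGF+AngII in mouse 1 and at 0.68 with all 3 substances in mouse 6. Igf2 stood at 1.47 with AngII and 1.12 with U46619 in mouse 5, both from few reads.

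After 48 h, Igf2 stood at −0.96 with AngII in replicate 6 of the EGF/AngII batch and at 0.25 with EGF+U46619 in replicate 1 of the EGF/U46619 batch. Among controls, on the log2(FPM + 0.5) scale, Igf2 stood at 2.49 in replicate 5 of the EGF/U46619 batch (5.11 FPM) and at 4.33 in replicate 6 of the EGF/AngII batch (19.6 FPM). In the same cultures Igfbp7 stood low at 9.81 (899 FPM) in the former, and Igfbp4 high at 8.79 (443 FPM) in the latter.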

How the results depend on the processing

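No value of a member that was called reversed its direction. Without the mouse in the model, that is without the replicate block, the number of called members after 24 h went from 5 to 0 for U46619, from 4 to 1 for EGF+U46619, from 4 to 0 for all 3 substances, from 4 to 0 for EGF+U46619 against EGF and from 2 to 0 for U46619 against EGF. The last was 4 with DESeq2 alone, with no low-count filter or with at least 10 counts in every library, and 1 with only the groups compared. In the settings with another scaling or filter, edgeR alone was refitted. Their DESeq2 values were those of the original fit, so these settings are not independent of it. Leaving out each mouse gave 3 to 5 members for U46619, EGF+U46619 and all 3 substances, 0 to 5 for EGF+U46619 against EGF and 1 to 4 for U46619 against EGF. After 48 h, EGF+U46619 against control (1 member) gave 3 with DESeq2 alone, 0 without the mouse block, 3 with the culture set as replicate block, 3 in the EGF/U46619 batch alone and 4 there with the culture set as block. EGF+U46619 against EGF (1 member) gave 0 without the mouse block or with only the groups compared, and 2, 2 and 3 in the last 3 settings. U46619 against EGF (0 members) gave 1 with DESeq2 alone and 1, 1 and 2 in those settings, and U46619 against control (0 members) gave 2 with DESeq2 alone, 1 with only the groups compared, and 1, 2 and 4. The batch with the culture set as block was chosen after seeing the data. Leaving out each culture set gave 0 to 2 members for EGF+U46619 against control and 0 to 1 for the other 3. Of 369 recomputed counts, those of the comparison between 24 h and 48 h among them, 321 equalled the original or stayed within 1.5 times it. Many comparisons called 0 members at the start, and counts that stayed at 0 are among the 321. The total is therefore no measure of how stable the calls were. The cause of the shifts in number was not tested. Low counts limit Igf2 and Igfbp5 most.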

Other observations

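Besides Adam9 and Htra1, described above, the cultures expressed further genes from the list of binding protein proteases and their inhibitors after 24 h. Pappa, the protease of Igfbp4, had 0.42 to 23.7 FPM in control and 0.515 to 49.4 FPM with U46619, a log2-fold change of 0.60 ± 0.33 that did not pass the test (edgeR FDR = 0.159). Of its inhibitors, Stc2 had a log2-fold change of 0.34 ± 0.23 (FDR = 0.261) and Stc1 one of −1.12 ± 0.46, with an FDR of 0.0553 in edgeR and 0.0413 in DESeq2. These genes were named after their values were seen.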
